A study of Mus musculus with 3 samples.

Results

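The cells described here are blood endothelial cells of mouse ear skin that carried transcripts of Apln, the gene for the secreted peptide apelin. They were chosen on raw UMI counts (UMI, unique molecular identifier, 1 per captured transcript). A cell needed at least 2 UMIs of Apln and at least 2 of Cdh5 and Ptprb together. It was kept out by any UMI of Prox1, Mmrn1 or Ptprc, by more than 1 UMI of the venular genes Selp and Ackr1 together, or by more than 1 of the arterial genes Sema3g and Bmx together. The rule found 345 cells among 37961 kept cells (40004 deposited barcodes) and among 7894 cells of the blood endothelial gate, with 86 in young WT, 65 in adult WT and 194 in adult Lang-DTA. They are called Apln cells below, and Apln is high in them by choice. The 2094 cells that met every other part of the rule but held no Apln UMI are called Apln-0 cells.

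The series holds 3 single-cell libraries of untreated mice on the C57BL/6J background, and each pooled the digested ears of 8 to 10 mice. Young WT mice were 4 weeks old (5 males, 3 females), adult WT mice 8 weeks (6 males, 4 females), and adult Lang-DTA mice 8 weeks (4 males, 6 females). Lang-DTA mice carry diphtheria toxin A under control of Langerin (Cd207) regulatory sequence, which removes Langerhans cells of the epidermis throughout life; WT mice that served beside Lang-DTA mice were, per the labels, littermates without the transgene. Sorting separated lymphatic endothelium, blood endothelium, CD45+ leukocytes and the remaining CD45-CD31- fraction, and the fractions were mixed in equal shares before capture, so no share given here is a frequency in the tissue. Every condition is 1 library: differences between conditions have no replicate check, and their intervals cover counting error only. The libraries held 124590777 to 137441575 UMIs in 12864 to 13600 barcodes, and pairs of them shared 39 to 50 barcode sequences. Langerhans cells, read as CD45+ cells (with a Ptprc UMI) that held at least 2 UMIs of both Cd207 and Epcam, made up 599 of 3227, 442 of 2986 and 0 of 2164 such cells, and the 0 in Lang-DTA allows a share of up to 0.139%. Values for 3 libraries are given in the order young WT, adult WT, adult Lang-DTA throughout.

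Apelin binds the receptor Aplnr, a G protein-coupled receptor of endothelial cells. In growing vessels Apln is a well-known marker of sprouting endothelium and its leading tip cells, which migrate toward VEGF, degrade and rebuild basement membrane, and are followed by proliferating stalk cells. Quiescent capillaries mostly switch Apln off, and transcription of Apln can be raised by hypoxia-inducible factors. The basement membrane under these vessels is built from type IV collagen, laminins, nidogens and perlecan.

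Promoter windows are shown for Apln, which chose the cells, and for Col4a1 and Col4a2, the type IV collagen pair whose transcripts accompanied it. They come from RefSeq on GRCm38.p6, where all 3 genes were matched, run 5′ to 3′ on the gene's own strand, and cover 250 bases before and 50 after the annotated start. In the Apln window (chrX:48034804-48035103, minus strand) capitals mark the 50 bases from the annotated start; in the Col4a1 (chr8:11312777-11313076, minus strand) and Col4a2 (chr8:11312555-11312854, plus strand) windows they mark the 78 bases that both windows share on opposite strands.
Apln: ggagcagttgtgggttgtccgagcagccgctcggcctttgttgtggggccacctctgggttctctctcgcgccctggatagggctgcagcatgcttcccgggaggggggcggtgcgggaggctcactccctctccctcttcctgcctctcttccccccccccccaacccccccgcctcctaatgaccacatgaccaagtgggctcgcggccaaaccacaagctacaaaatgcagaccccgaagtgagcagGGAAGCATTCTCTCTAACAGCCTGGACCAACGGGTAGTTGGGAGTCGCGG
Col4a1: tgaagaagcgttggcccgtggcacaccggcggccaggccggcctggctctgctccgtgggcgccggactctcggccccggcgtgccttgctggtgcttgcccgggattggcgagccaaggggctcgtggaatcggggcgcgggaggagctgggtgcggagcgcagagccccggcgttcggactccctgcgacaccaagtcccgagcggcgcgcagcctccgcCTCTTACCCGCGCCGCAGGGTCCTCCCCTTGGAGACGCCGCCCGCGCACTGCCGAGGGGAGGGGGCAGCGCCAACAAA
Col4a2: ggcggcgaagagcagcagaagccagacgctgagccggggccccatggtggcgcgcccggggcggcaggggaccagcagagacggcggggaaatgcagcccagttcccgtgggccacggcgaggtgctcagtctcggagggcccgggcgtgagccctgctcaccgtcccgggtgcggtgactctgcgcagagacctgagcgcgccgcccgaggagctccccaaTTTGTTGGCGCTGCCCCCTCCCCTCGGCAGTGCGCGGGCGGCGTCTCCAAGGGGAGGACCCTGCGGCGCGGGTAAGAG
The annotated starts of Col4a1 (11312826) and Col4a2 (11312805) lie 21 bases apart, each inside the other gene, so the genes overlap at their 5′ ends. From this overlap they run in opposite directions, and the capitals are the same bases read from either strand. The core motif of hypoxia response elements, ACGTG or GCGTG on either strand, occurred 0 times in the Apln window and 1 time in each of the collagen windows; of 32851 windows of this length, 43.77% held it. The windows held 64.0%, 74.0% and 73.7% G and C in the order shown, against a median of 52.67% over all windows.

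The label was checked first against blood endothelial markers. All 14 of the fixed markers were detected in the Apln cells of every library, and their summed level was 10786, 10344 and 10536 CPM (counts per 1000000 UMIs of the summed cells). The same sum was 9828, 9985 and 8781 CPM in Apln-0 cells. Pecam1, which the rule did not use, had at least 2 UMIs in 85 of 86, 65 of 65 and 189 of 194 Apln cells. Ptprc, Prox1 and Mmrn1 were at 0 by the rule; Sox10, Cdh19, Dct, Mlana and Tyrp1, which mark Schwann cells and melanocytes, were at 0 as well. Summed keratinocyte markers reached 453, 918 and 629 CPM, summed pericyte and smooth muscle markers 656, 690 and 476 CPM, and summed fibroblast markers 816, 13.4 and 257 CPM. In Apln-0 cells those sums were 814, 1089 and 1105 CPM, 2073, 926 and 205 CPM, and 2585, 850 and 1614 CPM. Cells with at least 5 UMIs of such other-lineage markers made up 29.1%, 41.5% and 35.6% of Apln cells and 30.2%, 22.2% and 15.7% of Apln-0 cells. Without those cells 579 genes were called higher and 537 lower in the comparison of Apln with Apln-0 cells described below, against 481 and 608 with them.

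The label names Apln, Col4a1, Nrp1 and Rflnb, and their levels are given as description without a test. Apln stood at 732, 567 and 1179 CPM in Apln cells, a median of 6, 3 and 7 UMIs per cell. Its tail was longest in adult Lang-DTA, where 1 cell held 192 UMIs and 38.1% of cells held at least 10, against 32.6% in young WT and 16.9% in adult WT. Col4a1, the alpha 1 chain of type IV collagen, stood at 3169, 1218 and 2289 CPM in Apln cells and at 1557, 644 and 802 CPM in Apln-0 cells. Rflnb (refilin B, a regulator of filamin and of actin bundles) stood at 1057, 810 and 1081 CPM against 604, 420 and 452 CPM. Both were higher in the Apln cells of each library, but the ranges of Col4a1 overlapped across libraries. Nrp1, a co-receptor of VEGF and semaphorins, stood at 829, 628 and 814 CPM against 699, 630 and 581 CPM, was no higher in adult WT, and so did not set these cells apart.

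Cells on either side of the Apln threshold differed by degrees in some genes but not in all. At exactly 2 Apln UMIs there were 22, 21 and 46 cells just inside the rule, and at 1 UMI 47, 50 and 94 cells just outside. Kit was at 17.3, 16.1 and 22.2 CPM in cells without an Apln UMI, at 23.6, 18.2 and 34.7 CPM with 1 UMI, at 46.2, 124 and 87.4 CPM with 2, and at 134, 83.5 and 106 CPM with 3 or more. Fscn1 was at 136, 85.5 and 105 CPM, then 178, 99.9 and 188 CPM, then 277, 183 and 290 CPM, then 649, 248 and 410 CPM over the same classes. Fscn1 was higher in each class than in the class before it in all 3 libraries, while Kit in adult WT was highest at 2 UMIs. In adult WT, cells at 2 UMIs were below cells without an Apln UMI for Odc1 (53.2 against 71.8 CPM). The same held for Nid2 (29.6 against 33.8 CPM) and Mest (17.7 against 27.4 CPM), but not for Trp53i11 (260 against 92.5 CPM) or Adm (106 against 21.3 CPM). In young WT and adult Lang-DTA all of these genes were higher at 2 UMIs. Cells with fewer UMIs in all are more likely to show 0 or 1 Apln UMI, so these classes differ in depth too.

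Apln cells were least frequent in adult WT. They made up 5.04% of the blood endothelial gate in young WT (86 of 1706 cells, 95% exact binomial interval 4.05 to 6.19), 1.86% in adult WT (65 of 3501, 1.44 to 2.36) and 7.22% in adult Lang-DTA (194 of 2687, 6.27 to 8.26). Every cell thinned to 4000 UMIs gave 3.72% (2.86 to 4.75), 1.42% (1.03 to 1.90) and 6.59% (5.61 to 7.68). The adult WT interval lay below both others with and without thinning. Blood endothelial cells under 4000 UMIs were left out of the thinned shares (162, 441 and 455 cells before the gate was applied again). Venular or arterial cells that lost UMIs of the rule's genes could then enter the capillary part. That part held 484, 1096 and 1050 cells before thinning and 582, 1123 and 995 after, so the thinned shares do not isolate depth. Leukocytes, which should lack the gene, reached 2 Apln UMIs in 4 of 2875, 0 of 2653 and 1 of 1913 cells, and keratinocytes in 1 of 1298, 6 of 2454 and 2 of 2697. Median depth was 10284, 7586 and 5926 UMIs in leukocytes, 15983, 13535 and 11017 UMIs in keratinocytes, and 11497, 8872 and 11094 UMIs in Apln cells; the count of 0 among adult WT leukocytes allows a share of up to 0.113%.

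The order of young WT and adult Lang-DTA differed between cells called male and female. Among cells called male from Xist and Y-linked genes, the shares were 3.41%, 1.72% and 6.71%; among cells called female they were 7.70%, 2.24% and 7.60%. Without cells with 5 or more other-lineage UMIs the shares were 5.14%, 1.59% and 6.06%. In each of these subsets adult WT remained the lowest. The pools differed in their numbers of males and females, and the part of sex in the pooled shares was not tested. Against the capillary part alone (gate cells with neither venular nor arterial genes above the limit) the shares were 17.8%, 5.93% and 18.5%.

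**Figure D1:**
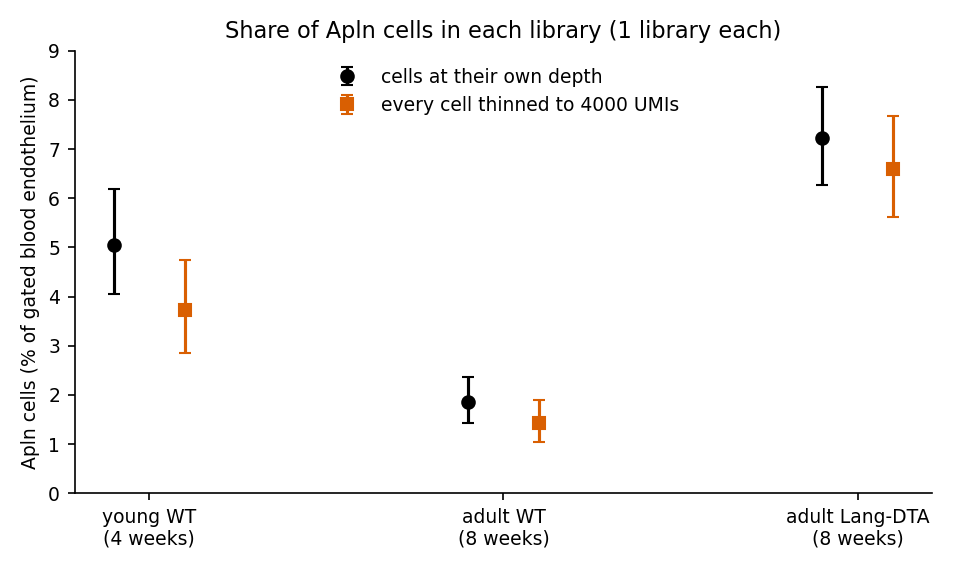
Share of Apln cells among gated blood endothelial cells (y axis, percent) in the 3 libraries (x axis, age in weeks), at each cell's own depth (circles) and with every cell thinned to 4000 UMIs (squares); bars are 95% exact binomial intervals and cover counting error only. Adult WT, at 1.86% and 1.42%, lies below young WT and adult Lang-DTA.

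Apln was not confined to these cells. In the venular gate, 28.8%, 20.4% and 23.3% of cells held at least 2 Apln UMIs (164, 222 and 179 cells), against 2.31%, 2.26% and 3.88% in the arterial gate. The venular cells with Apln carried less of it (358, 251 and 408 CPM) and were kept out by the rule. Venular cells with and without Apln are compared below, in a model fitted to both gates together.

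The transcriptome of Apln cells was compared with that of Apln-0 cells of the same library, by summing UMIs per library and group. edgeR's quasi-likelihood test with library as a block, and Benjamini-Hochberg adjustment over 8887 genes, called 481 genes higher (5.41%) and 608 lower (6.84%) in Apln cells at an adjusted p of up to 0.05. The 3 conditions stand in for replicates here, so a call is a difference shared by 3 unlike libraries. Where groups are said below not to overlap, this describes the levels of that gene alone. The share of all tested genes without overlap is not given. Without young WT, which leaves 2 pairs, the counts were 129 and 266, and without adult Lang-DTA 304 and 505. Of the 481 genes, 479 were tested without young WT and all 479 kept their direction, 121 of them past the threshold. Apln cells also held more UMIs than Apln-0 cells (medians 8228, 6002 and 5348.5 in the latter). With Apln-0 cells matched 1 to 1 on total UMIs, 461 genes were higher and 583 lower, and 337 of the 481 were called again.

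Among the 15 genes with the largest rise were, in order, Mki67, Kit, Ptchd4, Mest, Fscn1, Nid2, Cxcr4, Adm, Nudt4, Odc1, Tubb6, Vwa1, Meox1 and Trp53i11. Kit, the receptor of stem cell factor, stood at 116, 93.7 and 103 CPM in Apln cells and at 17.3, 16.1 and 22.2 CPM in Apln-0 cells. The groups did not overlap, and Kit rose 5.58-fold (log2 fold change 2.48 ± 0.16 SE, edgeR adjusted p = 6.46e-05). Kit was detected in 51.2%, 38.5% and 42.3% of Apln cells, and after thinning in 33.3%, 22.2% and 25.3% against 7.91%, 4.35% and 5.95% of Apln-0 cells. Among keratinocytes, 0.0797%, 0.0842% and 0.313% of thinned cells had a Kit UMI, which sets the background below every Apln group.

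Fscn1 encodes fascin, which bundles actin in filopodia. It stood at 573, 232 and 391 CPM in Apln cells and at 136, 85.5 and 105 CPM in Apln-0 cells. No library of one group reached the other, and the rise was 3.54-fold (log2 fold change 1.82 ± 0.13 SE, edgeR adjusted p = 0.000106). After thinning, Fscn1 was detected in 71.8%, 50.8% and 69.2% of Apln cells and in 37.1%, 25.3% and 30.8% of Apln-0 cells, against 1.35%, 0.777% and 2.58% of leukocytes. Among Apln cells it had the highest thinned share, in each library, of the 13 genes examined cell by cell.

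Of 14 protease and inhibitor genes tested, 2 rose and 1 fell. Plau (urokinase), a plasminogen activator, rose without overlap between the groups, at 23.4, 29.7 and 31.5 CPM against 8.95, 6.84 and 11.6 CPM (3.07-fold, edgeR adjusted p = 0.00394). Mmp2 fell, at 11.2, 2.97 and 4.55 CPM against 40.9, 26.6 and 45.1 CPM. This gelatinase is a typical fibroblast product. Fibroblast markers were lower in Apln cells too, and their part in the fall was not tested.

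Of 18 tip cell genes tested, 13 rose and 0 fell, with a median log2 fold change of 1.02 against 0.02 over all genes tested. Without young WT 7 were called, without other-lineage cells 10, and without cells holding an Mki67 or Top2a UMI (an alternative added after seeing the data) 9. Cxcr4, the receptor of the chemokine Cxcl12, stood at 69.3, 77.3 and 36.4 CPM against 22.4, 11.9 and 17.3 CPM and rose 3.39-fold (edgeR adjusted p = 0.0119). Adm, which encodes the vasoactive peptide adrenomedullin, stood at 95.6, 69.9 and 128 CPM against 37.4, 21.3 and 31.0 CPM and rose 3.32-fold (edgeR adjusted p = 0.000379). Neither gene overlapped between groups, although the Cxcr4 call was lost without young WT and without cycling cells.

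Angpt2, the Tie2 ligand that loosens vessels, stood at 109, 125 and 126 CPM against 48.9, 40.0 and 63.0 CPM and rose 2.36-fold (edgeR adjusted p = 0.00114). Trp53i11 rose 2.76-fold, Lxn 2.55-fold and Mcam 1.75-fold. Mest, an imprinted gene, stood at 206, 71.4 and 231 CPM against 50.8, 27.4 and 35.1 CPM and rose 4.37-fold (edgeR adjusted p = 0.00259), but was not called without cycling cells. The groups of Angpt2 and Mest did not overlap; adult WT had the lowest Mest in both.

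Esm1 (endocan), among the most used tip cell markers, moved less. It stood at 150, 58.0 and 50.5 CPM against 77.7, 43.9 and 34.3 CPM, rose 1.59-fold (edgeR adjusted p = 0.0206), and overlapped between groups because Apln-0 cells of young WT exceeded Apln cells of both adult libraries. The call was lost without young WT, under DESeq2 and without other-lineage cells. Only 32 of 86, 13 of 65 and 32 of 194 Apln cells held an Esm1 UMI. Dll4, the Notch ligand of tip cells, was at 291, 236 and 190 CPM against 272, 204 and 162 CPM (log2 fold change 0.18 ± 0.10 SE, edgeR adjusted p = 0.287), and Unc5b, Plaur and Igfbp3 did not pass the test either. Pgf (placental growth factor) was at 106, 40.2 and 69.5 CPM against 0.959, 0.743 and 78.7 CPM: near 0 in Apln-0 cells of both WT libraries and as high as in Apln cells in adult Lang-DTA (edgeR adjusted p = 0.548).

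**Figure D2:**
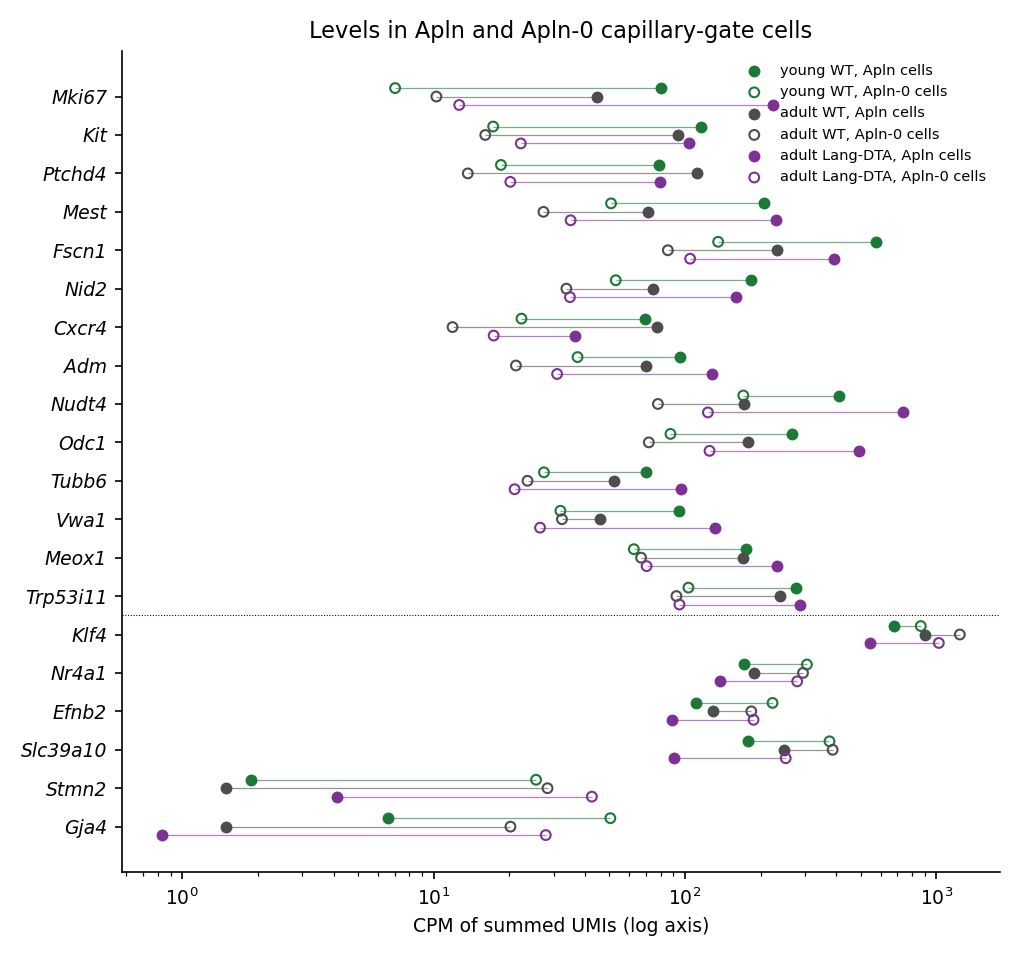
CPM of summed UMIs (log axis) in Apln cells (filled) and Apln-0 cells (open) of each library, for 14 of the 15 genes with the largest rise above the dotted line and 6 listed genes that fell below it. In every gene above the line each filled point lies to the right of the open point of its library; Vwa1 in adult WT, at 46.1 against 32.4 CPM, is the narrowest gap among them.

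Receptors of the pathways that drive sprouting moved little or unequally. Aplnr, the apelin receptor, stood at 197, 86.3 and 133 CPM against 106, 62.9 and 87.5 CPM and rose 1.59-fold (edgeR adjusted p = 0.00925), with overlap between groups; the call was lost without young WT and at a threshold of 3 Apln UMIs. Apela, the other Aplnr ligand, had 0 UMIs in Apln cells of all 3 libraries. Kdr (VEGFR2), the main VEGF receptor, was at 551, 424 and 411 CPM against 521, 469 and 412 CPM (log2 fold change -0.02 ± 0.09 SE, edgeR adjusted p = 0.916), and its sign depended on the setting. Flt1, the VEGF decoy receptor, fell from 2258, 2764 and 1836 CPM to 1652, 2046 and 1082 CPM (1.46-fold lower, edgeR adjusted p = 0.00536; not called without young WT). Nrp2, a receptor of semaphorins and VEGF-C, rose (log2 fold change 0.59 ± 0.10 SE, edgeR adjusted p = 0.00595; not called without young WT), and Vegfc fell 5.02-fold. Of 8 VEGF pathway genes tested, these were the 3 called. Of 11 Notch pathway genes tested 1 was called, the target Hey1, which fell 3.03-fold (edgeR adjusted p = 0.0208; not called without young WT).

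Most basement membrane genes rose. Of 15 tested, 9 rose and 2 fell (median log2 fold change 0.63); the 9 include the naming marker Col4a1, and 7 were called without young WT. Col4a2 stood at 1639, 656 and 1265 CPM against 918, 413 and 550 CPM and rose 1.88-fold (edgeR adjusted p = 0.00114). Its groups overlapped across libraries, as those of Col4a1 did, because adult WT was low in both kinds of cell. Nid2 (nidogen 2), which links laminin to collagen IV, stood at 184, 74.4 and 160 CPM against 53.1, 33.8 and 34.9 CPM and rose 3.41-fold without overlap (edgeR adjusted p = 0.000853).

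Hspg2 (perlecan, the heparan sulphate proteoglycan) rose 1.82-fold, from 345, 216 and 276 CPM to 617, 373 and 534 CPM without overlap (edgeR adjusted p = 0.000619). Col18a1, Lamb1, Col15a1, Lamc1 and Lama4 rose 2.13-, 1.70-, 1.66-, 1.55- and 1.31-fold. The Lama4 call was lost in 9 alternatives, among them those without young WT, without adult Lang-DTA and without other-lineage cells, and the Lamb1 call without young WT. Lama5, Nid1, Sparc and Agrn did not pass the test. Lamb2 fell, and so did Fn1 (fibronectin), a common fibroblast product; the Lamb2 call was lost without young WT and that of Fn1 without adult Lang-DTA. Fibroblast markers were lower in Apln cells too, and their part in it was not tested. Among collagen maturation genes, 3 of 13 rose: Pxdn (peroxidasin, which cross-links type IV collagen) 2.11-fold, the collagen chaperone Serpinh1 1.89-fold, and Plod3 (lysyl hydroxylase 3) 1.56-fold. The Plod3 call was lost in 12 alternatives, the most of any named gene. The 3 that fell were P4ha1, Lox and Loxl2, and Lox had UMIs in only 3, 0 and 1 Apln cells. Without other-lineage cells 0 of 11 collagen maturation genes fell: P4ha1 was not called, and Lox and Loxl2 were too low to be tested. P4ha1 was not called without young WT either.

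Cytoskeletal genes rose as well. Of 15 Yap and SRF targets tested, 7 rose and 1 fell (3 and 0 without young WT, 9 and 0 of 13 without other-lineage cells). Actb, cytoplasmic actin, stood at 3874, 3267 and 4159 CPM against 2241, 2152 and 1967 CPM without overlap (1.77-fold, edgeR adjusted p = 0.00114). Tpm4, a tropomyosin, rose 1.85-fold, Tagln2 1.69-fold and Flna (filamin A) 1.59-fold, the last 2 not called without young WT. Acta2, the smooth muscle actin, was the gene that fell. Pericyte markers were lower in Apln cells of both WT libraries, and their part in the fall was not tested. Tubb6, a tubulin, rose 3.08-fold (edgeR adjusted p = 0.00226).

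Cycling cells were more frequent among Apln cells than among Apln-0 cells, though few. At least 2 Mki67 UMIs, a marker of dividing cells, were found in 6 of 86 (6.98%), 4 of 65 (6.15%) and 22 of 194 (11.3%) Apln cells, and in 6 of 351 (1.71%), 6 of 981 (0.612%) and 8 of 762 (1.05%) Apln-0 cells. In the whole venular gate 24 of 570 (4.21%), 20 of 1087 (1.84%) and 19 of 769 (2.47%) cells held as many. The 95% intervals of Apln cells and venular cells overlapped in both WT libraries but not in adult Lang-DTA. Those of Apln and Apln-0 cells overlapped in young WT. After thinning, 7.69%, 9.52% and 14.8% of Apln cells held an Mki67 UMI, against 3.60%, 1.09% and 1.98% of Apln-0 cells. In young WT the 95% intervals of these thinned shares overlapped (2.88 to 16.0 and 1.74 to 6.52). Mki67 stood at 80.6, 44.6 and 225 CPM against 7.03, 10.3 and 12.6 CPM without overlap and rose 10.6-fold (edgeR adjusted p = 0.00466). A single cell held 58 of the 86 Mki67 UMIs in young WT, 12 of 30 in adult WT and 98 of 543 in adult Lang-DTA. Of 13 proliferation genes tested, 6 rose (Mki67, Cdk1, Ccnb2, Birc5, Tyms, Hells) and 0 fell, with a median log2 fold change of 2.72. With each cell weighted equally (limma), 4 of 10 rose and the median was 0.82. Without young WT 2 were called, without adult Lang-DTA 2 of 10 (median 1.28), and without other-lineage cells 8 of 14. Pcna, the polymerase clamp, was at 98.4, 90.7 and 93.9 CPM against 99.7, 115 and 83.2 CPM and did not pass the test. Without cells holding an Mki67 or Top2a UMI, 297 genes of all those tested were higher, and 282 of the 481 were called again.

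Hypoxia and glycolysis genes moved little as a list. Of 19 tested 3 rose (Adm, and the glycolytic enzymes Pkm and Gapdh) and 2 fell (Pfkfb3, which makes an activator of glycolysis, and Ddit4), with a median log2 fold change of 0.15; over all genes 5.41% rose and 6.84% fell. Pfkfb3 was not called without adult WT. Pkm, pyruvate kinase, stood at 260, 225 and 249 CPM against 135, 110 and 124 CPM and rose without overlap (log2 fold change 0.997, edgeR adjusted p = 0.000468). Slc2a1, Ldha, Pgk1 and Egln3, common targets of hypoxia-inducible factors, did not pass the test. Odc1, the first enzyme of polyamine synthesis, rose 3.16-fold, at 266, 178 and 492 CPM against 87.6, 71.8 and 125 CPM (edgeR adjusted p = 0.000174). It was not particular to Apln cells of the capillary gate. After thinning, Odc1 was detected in 44.9%, 39.7% and 58.8% of them and in 62.7%, 61.0% and 62.2% of venular cells with Apln.

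Arterial genes were lower in Apln cells although the rule had already capped Sema3g and Bmx in both groups. Of 11 tested, 10 fell and 0 rose (median log2 fold change -1.49; 5 fell with Apln-0 cells matched 1 to 1 on UMIs). Gja4 (connexin 37) stood at 6.56, 1.49 and 0.828 CPM against 50.5, 20.2 and 27.9 CPM and fell 13.2-fold (edgeR adjusted p = 0.000469). Efnb2 (ephrin B2, the arterial ephrin) stood at 111, 129 and 89.0 CPM against 223, 184 and 187 CPM (1.84-fold lower, edgeR adjusted p = 0.00336), and the transcription factor Sox17 was 1.54-fold lower (not called without young WT). None of these 3 overlapped between groups. Of 13 venular genes tested 0 were called (median -0.34), while 2 further ones, Selp and Ackr1, belong to the rule. This count depended on the setting: 4 of the 13 were lower without adult WT and 4 without other-lineage cells.

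Flow-linked and immediate early genes fell by small amounts. Klf2 and Klf4, transcription factors raised by laminar flow, stood at 1027, 1389 and 824 CPM against 1358, 1647 and 1428 CPM, and at 679, 903 and 545 CPM against 867, 1240 and 1023 CPM. They fell by 0.48 and 0.58 on the log2 scale (edgeR adjusted p = 0.023 and 0.0121), overlapped between groups, and neither was called without young WT. Of 16 immediate early genes tested 12 fell and 1 (Klf6) rose, with a median log2 fold change of -0.41; without young WT 1 was called lower. Nr4a1 fell furthest among those above 100 CPM, at 171, 187 and 138 CPM against 306, 295 and 279 CPM (1.79-fold, edgeR adjusted p = 0.00155, no overlap). Immediate early genes respond to tissue dissociation, whose part in these differences was not tested.

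Capillary identity genes divided. Gpihbp1, the capillary anchor of lipoprotein lipase, stood at 780, 674 and 948 CPM against 428, 432 and 424 CPM and rose 1.86-fold without overlap (edgeR adjusted p = 0.00114). Fabp5 and Meox2 rose 1.54- and 1.32-fold, Lpl and Btnl9 fell, and Cd36, Fabp4 and 6 others of the 13 tested did not pass. The transporter Slc39a10 fell, from 376, 387 and 252 CPM to 179, 248 and 90.2 CPM (2.10-fold, edgeR adjusted p = 0.00397), as did Abcb1a, Slc3a2 (neither called without young WT) and Slc16a1, while Slc7a5, the amino acid transporter, rose 2.03-fold. Of 9 MHC class I genes tested 0 were called; 5 of 10 junction genes were, with Pecam1, Cldn5, Cdh13 and Cd93 higher and Jam2 lower. The junction genes that rose numbered 0 without young WT, 2 without adult WT, 2 without other-lineage cells and 1 among cells with at least 2 Pecam1 UMIs; Pecam1 lost its call in 9 alternatives and Cdh13 in 5.

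**Figure D3:**
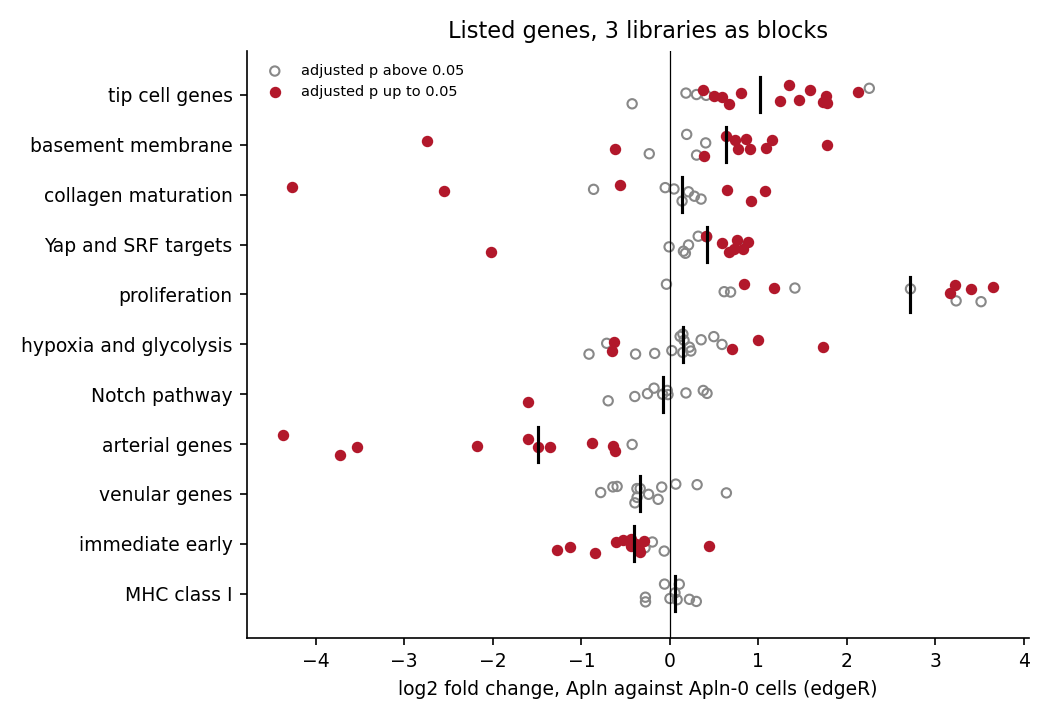
edgeR log2 fold change of Apln against Apln-0 cells (x axis) for the genes of 11 lists (rows), filled where the adjusted p is up to 0.05; black bars mark list medians. Tip cell genes (median 1.02) and proliferation genes (2.72) lie to the right, arterial genes (-1.49) to the left, and MHC class I genes near 0.

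The 10 genes with the largest fall were Nebl, Chrm3, Angptl7, Chad, Mfap4, Igfbp6, Serping1, Mgp, Apod and Col8a1. Most are better known from connective tissue than from capillaries. Nebl had 0 UMIs in Apln cells of all libraries against 81.2, 27.7 and 65.1 CPM in Apln-0 cells. With 3 counts in place of the 0 over the group, it was 71.3-fold lower. Mgp (matrix Gla protein) stood at 46.8, 34.2 and 11.2 CPM against 702, 379 and 525 CPM. Fibroblast markers moved with them, 4 of 6 tested being lower in Apln cells, but with both groups limited to cells with at least 2 Pecam1 UMIs 0 fibroblast markers were called lower. The part of such cells among Apln-0 cells in this group of genes was not tested further, and globin transcripts were lower in Apln cells too (4 of 4 tested).

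Few genes were called between venular cells with and without Apln. Their contrast came from a model fitted to both gates together, unlike the capillary counts above. The counts of called genes are therefore not directly comparable. In venules, cells with at least 2 Apln UMIs against those with 0 gave 3 called genes of 8790 tested (0.0341%). Ccnd1, a cyclin, and Rflnb were among them, with log2 fold changes of 1.30 and 0.72. The difference of the capillary and venular contrasts was tested in its own right and called for 264 genes (3.0%), 116 with a more positive contrast in the capillary gate. Among tip cell genes it was called for 6: Angpt2, Dll4, Nid2, Cd34, Lxn and Trp53i11. Among basement membrane genes it was called for 4: Lamc1, Nid2, Hspg2 and Col15a1.

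Meox1, a homeobox factor, stood at 167, 163 and 208 CPM in venular cells with Apln and at 136, 170 and 165 CPM in those without. Capillary Apln cells had 174, 170 and 233 CPM. For Kit, Fscn1 and Mest the difference was not called (edgeR adjusted p = 0.299, 0.0768 and 0.0786), although Kit was at 0.405, 2.64 and 16.1 CPM in venular cells with Apln. Esm1 had 0 UMIs in all 164, 222 and 179 of those cells, which allows shares of up to 1.83%, 1.35% and 1.68% of cells with a UMI; its difference was not called (adjusted p = 1).

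**Figure D4:**
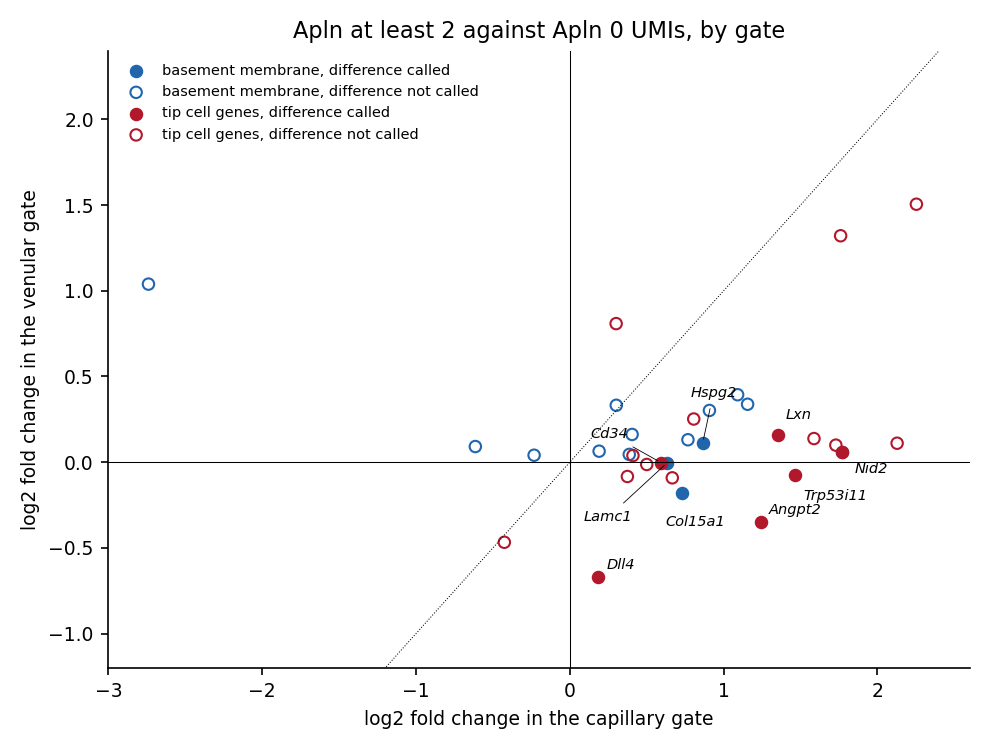
log2 fold change of cells with at least 2 against 0 Apln UMIs in the capillary gate (x axis) and the venular gate (y axis) for basement membrane genes (blue) and tip cell genes (red); filled points are genes whose 2 contrasts differed at an adjusted p of up to 0.05, and the dotted line is equality. Filled points lie below the line: Nid2 has 1.77 in the capillary gate and 0.06 in the venular gate.

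Between ages, Apln cells of adult WT were set against those of young WT. A gene was compared where it had at least 50 UMIs over both libraries and is named as higher or lower where the CPM ratio was at least 1.5-fold. Of 5634 genes, 456 were higher (8.09%) and 639 lower (11.3%) in adult WT. Scaling by median ratios gave 550 and 532, which moved the share of higher genes among those past 1.5-fold from 41.6% to 50.8%. Of 13 basement membrane genes, 10 were lower and 0 higher (median log2 ratio -0.81, against -0.06 over all genes compared); without other-lineage cells it was 7 of 12. Col4a1 was lower by a log2 ratio of -1.38 (95% exact conditional interval -1.49 to -1.27), Col4a2 by -1.32 (-1.48 to -1.17) and Nid2 by -1.30 (-1.78 to -0.85). Apln-0 cells showed the same direction, with a list median of -0.74 and Col4a1 at -1.27.

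Of 18 tip cell genes 8 were lower and 0 higher in adult WT (median -0.52; -0.42 in Apln-0 cells). Esm1 had a log2 ratio of -1.37 (-1.91 to -0.86), Mest of -1.53 (-2.01 to -1.07) and Fscn1 of -1.31 (-1.57 to -1.05). Mest differed in male-called cells, where the ratio was 0.25. Kit was at 116 and 93.7 CPM, a log2 ratio of -0.31 (-0.77 to 0.14), and Cxcr4 at 69.3 and 77.3 CPM. Both intervals include no change. Aplnr was lower by a log2 ratio of -1.19 (-1.64 to -0.76).

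The 8 genes named as higher with age were Serpinb2, Sema4a, Clu, Hes1, Sfn, Ly6d, Col17a1 and Fmo2, but few stood on many cells. Hes1, a Notch target, was at 135 CPM in young WT and 546 CPM in adult WT (log2 ratio 2.02, 1.73 to 2.30), with a UMI in 57 of 86 and 53 of 65 cells. Apln-0 cells moved alike, at 194 and 614 CPM. Fmo2, a flavin monooxygenase, was at 68.4 and 245 CPM (26 and 33 cells). The keratinocyte genes Sfn, Ly6d and Col17a1 came mostly from 1 cell, which held 94.3%, 97.4% and 88.1% of their adult WT UMIs, and all 60 adult WT UMIs of Serpinb2 were in 1 cell. The 8 named as lower (Dcn, Col1a2, Zeb2, Col3a1, Igfbp5, Col8a1, Col1a1 and Meg3) had UMIs in 3 to 7 of the 86 young WT cells, and 1 cell held 99.2% of those of Dcn.

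Between genotypes, Apln cells of adult Lang-DTA were set against those of adult WT, the library that also served the age comparison. Of 7455 genes compared, 1403 were higher (18.8%) and 683 lower (9.16%) in Lang-DTA. The median gene differed by 0.11 on the log2 scale; scaling by median ratios, which shifts every log2 ratio by -0.11, moved the share of higher genes among those past 1.5-fold from 67.3% to 53.0%. The 2 genotypes' pools differed in sex: 30 male-called and 31 female-called Apln cells in adult WT, and 57 and 116 in Lang-DTA.

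Proliferation genes were higher in Lang-DTA Apln cells. Of 15 compared, 13 were higher and 0 lower (median log2 ratio 2.33; 0.28 in Apln-0 cells; 13 also after median-ratio scaling). Fibroblast markers were higher too, 3 of 3 compared (median 3.63), at a summed 13.4 and 257 CPM; without other-lineage cells none of them could be compared and 10 of 13 proliferation genes were higher. Mki67 was at 44.6 CPM in adult WT and 225 CPM in Lang-DTA, a log2 ratio of 2.33 (1.80 to 2.91). The ratio was 3.45 in female-called and 0.06 in male-called cells, where 3 of 30 and 3 of 57 Apln cells held 2 or more Mki67 UMIs, against 1 of 31 and 15 of 116 in female-called cells. The genotype and the sex makeup of the pools cannot be told apart in the pooled value. Hist1h2ap, a histone gene of dividing cells, Prc1 and Knl1 were among the 8 genes named as higher, with UMIs in 41, 18 and 16 Lang-DTA cells.

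Of 15 basement membrane genes 8 were higher and 0 lower in Lang-DTA (median 0.61; 0.25 in Apln-0 cells). Without cells with 5 or more other-lineage UMIs, 1 was higher and 1 lower of 13, with a median of 0.16. Col4a1 had a log2 ratio of 0.91 (0.80 to 1.02) with all cells and of 0.43 (0.30 to 0.56) without them, Col4a2 of 0.95 and 0.55, and Nid2 of 1.11 and 0.65. Hspg2 went from 0.52 to -0.01. The part of other-lineage cells in the values over all cells was not tested beyond this.

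**Figure D5:**
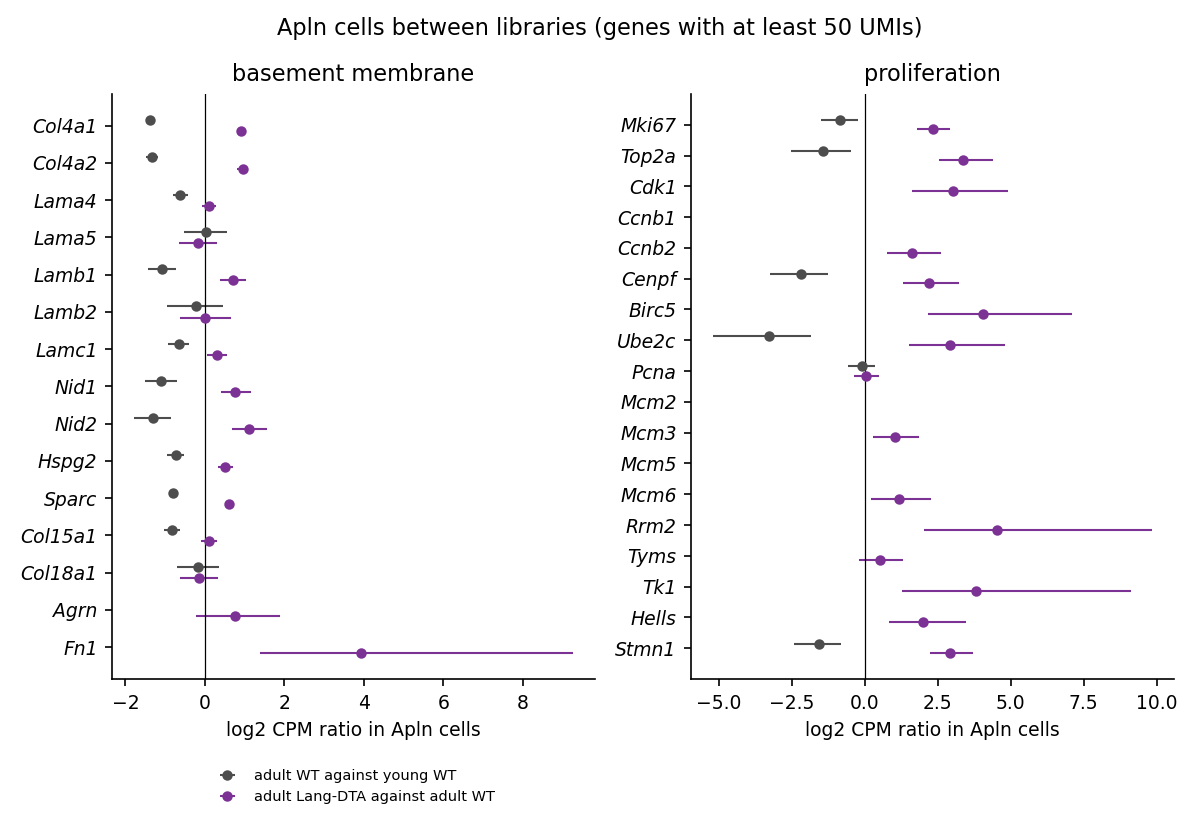
log2 CPM ratio in Apln cells (x axis) for basement membrane genes (left) and proliferation genes (right) with at least 50 UMIs in the comparison, adult WT against young WT (grey) and adult Lang-DTA against adult WT (purple); bars are 95% exact conditional intervals and cover counting error only. Both comparisons share the adult WT library, so their opposite signs are not independent; Col4a1 is at -1.38 and 0.91.

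Gdf15, Cxcl2 and Ccl2 were among the 8 genes named as higher in Lang-DTA. Of 17 interferon response genes 3 were higher and 4 lower, of 16 immediate early genes 1 and 6, and of 12 venular genes, Icam1 among them, 2 and 6. Over all 7455 genes compared, 18.8% were higher and 9.16% lower. Icam1, an adhesion molecule for leukocytes, was at 385 CPM in adult WT and 999 CPM in Lang-DTA (log2 ratio 1.38, 1.19 to 1.57; 0.54 in Apln-0 cells). The chemokine genes Cxcl2 and Ccl2 were at 4.46 and 8.92 CPM in adult WT and 200 and 180 CPM in Lang-DTA, in 58 and 37 of 194 cells. In Apln-0 cells Cxcl2 went from 14.7 to 46.7 CPM, and Ccl2 from 6.99 to 561 CPM, a larger ratio than in Apln cells (6.33 against 4.33 on the log2 scale). B2m (beta-2 microglobulin) had a log2 ratio of 1.01 (0.90 to 1.12; 0.45 in Apln-0 cells), and Odc1 and Nudt4 had ratios of 1.46 and 2.10 (0.80 and 0.66 in Apln-0 cells). Gdf15 had 0 UMIs in adult WT and 1101 in Lang-DTA, but 1 of its 25 cells held 79.3% of them. With that cell included and 3 counts in place of the 0, the ratio was 102-fold, with a lower 95% limit of 34.9-fold. In Apln-0 cells Gdf15 went from 6.24 to 697 CPM. Dcn and Col8a1, the last of the 8 named as higher, were found in 10 cells each.

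Other genes were lower in Lang-DTA Apln cells. Mctp1 was at 995 CPM in adult WT and 182 CPM in Lang-DTA (log2 ratio -2.45, -2.63 to -2.28), and at 1242 and 718 CPM in Apln-0 cells. Vwf, the clotting carrier stored in Weibel-Palade bodies, was at 241 and 67.5 CPM (log2 ratio -1.84; -0.47 in Apln-0 cells), Csf2rb at 277 and 79.5 CPM, and Cxcl12, the ligand of Cxcr4, at 1787 and 992 CPM. Flt1 was at 2046 and 1082 CPM, a log2 ratio of -0.92 (-1.01 to -0.82; -0.59 in Apln-0 cells), and Cxcr4 at 77.3 and 36.4 CPM. Each of these ratios kept its sign without other-lineage cells and in both sexes where it was computed (Vwf, Csf2rb, Cxcl12, Flt1 and Cxcr4). Map2, 2600014E21Rik, Syt15, Lrat, Sema4a, Prom1 and Rgs5 completed the 8 named as lower, with 17 to 81 UMIs in Lang-DTA.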

How the data were processed

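Dissociated ear skin was sorted and captured on the 10x Chromium 3′ v4 chemistry (29000 cells loaded to capture 20000), and reads were processed with Cell Ranger 8.01 on GRCm38, per the submitters' processing notes. The deposited values are UMI counts per gene and barcode, not normalized, for 31053 genes in 3 libraries of 124590777 to 137441575 UMIs. Cells entered with 500 or more genes detected, 1000 or more UMIs and a mitochondrial share not above 10%. No clustering was done and no doublet caller was run; instead results were repeated without cells holding 5 or more other-lineage marker UMIs, and shares without the top 5% of cells by UMIs.

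UMIs were summed per library and cell group. Genes with a mean of at least 10 CPM over the 6 sums were tested with edgeR 4.0.16 (quasi-likelihood test, TMM, Benjamini-Hochberg adjustment, R 4.3.3), with library as the block because both groups come from the same pool and capture; the pairing is by origin. Genes of the rule and mitochondrial genes were left out. DESeq2 1.42.0 and limma 3.58.1 (log2 CPM with a pseudocount of 1) served as alternatives. With library as the block, p-values set the difference of Apln and Apln-0 cells within a library against its variation over 3 pooled libraries. On simulated counts of 8887 genes this test called 81% of 2-fold and 37% of 1.5-fold changes, and 19 of 8687 unchanged genes. Conditions were compared by CPM ratios with exact conditional intervals and no p-value. Shares carry exact Clopper-Pearson intervals; intervals and floors cover counting error only.

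The rule, the gene lists and the alternatives were chosen with earlier results of these data known. Genes were named by membership of a list, as the 15 highest and 10 lowest log2 fold changes among called genes whose sign was shared by 3 libraries and whose higher group reached 50 CPM, or, between conditions, as the first 8 in each direction by the interval limit nearest to no change (at least 50 UMIs, sex-linked, mitochondrial and ribosomal protein genes left out). The venular contrast, the 1 to 1 matching, the removal of Mki67 or Top2a cells and the Langerhans cell check were added after seeing the data. Python 3.11.15, numpy 2.4.6, scipy 1.17.1 and pandas 2.3.3 were used. Some genes are not reported here. Imiquimod-treated mice, mentioned in the labels, were not analysed here.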

Additional observations from a re-analysis of the deposited data

Results flagged for a closer look

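For 9 of 24 genes with the largest changes, the contrast of cells with and without Apln differed between the capillary and the venular gate, by edgeR's test of the difference itself (adjusted p of up to 0.05 over 8790 genes, library as block). The capillary contrast exceeded the venular one, on the log2 scale, by 4.30 for Mki67, 1.82 for Tubb6, 1.73 for Nid2, 1.498 for Trp53i11 and 1.36 for Meox1. It was below the venular one for Nebl (-10.5), Chrm3 (-5.61), Chad (-5.11) and Mgp (-4.13). Nebl had 0 UMIs in capillary Apln cells, so its difference depends on the prior count and is no bound. The 24 genes were chosen for a large capillary contrast, which favours a difference in the same direction.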

How the results depend on the processing

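The share of Apln cells moved with its definition: at 1 or more Apln UMIs it was 7.80%, 3.28% and 10.7% in young WT, adult WT and Lang-DTA, and at 3 or more 3.75%, 1.26% and 5.51%. Against the capillary part it was 17.8%, 5.93% and 18.5%, thinned 3.72% and 1.42% in the WT libraries, in male-called and female-called young WT cells 3.41% and 7.70%, and without other-lineage cells 6.06% in Lang-DTA. Adult WT was lowest under each of these.

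Apln against Apln-0 cells gave 481 genes higher and 608 lower. DESeq2 gave 248 and 388. Without Mki67 or Top2a cells 297 were higher; at a mean of 50 CPM 320 were lower, and at 10 UMIs over the 6 sums 1181. Leaving out 1 library gave 129 to 447 higher and 266 to 633 lower, fewest without young WT. With no replicate block, so that the pairing of groups within a library was not used, 62 and 78 were called. No called gene was called in the opposite direction under these, except 1 of those lower with 1 to 1 matching and 3 without other-lineage cells. Signs turned among genes that were not called: Kdr was at 0.24 (1 to 1 matching), 0.0049 (3 to 1 matching), 0.00028 (limma), 0.029 (without adult WT, against -0.095 without young WT) and 0.037 (without cycling cells), and Dll4 at -0.15 without other-lineage cells. The cause was not tested.

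Between conditions, a minimum of 100 UMIs gave 242 higher and 290 lower genes with age, and 896 and 435 with genotype. Male-called cells gave 356 lower with age and 746 and 391 with genotype; female-called cells gave 289 and 417 with age. Fewer genes were compared in each. Ly6d turned with age, to -5.39, in male-called cells. No paired analysis was possible because each condition is 1 library. Depth limits the adult WT values most, with 65 cells and 672463 UMIs.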
